A study of Mus musculus with 15 samples.

Results

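The genes described here build and regulate autophagy and the lysosome. They were taken from a list of 39 gene symbols, and every array feature (a probe spot) with a value and with just that symbol in the platform annotation was used. Of the 39 genes, 36 were measured, with 78 features, out of 16401 genes and 34479 features with values on the arrays. Pik3r4, Atg9a and Optn had no feature with values, so they are not analysed here. Autophagy genes numbered 22 and lysosome genes 14.

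Messenger RNA of the whole brain cortex was measured on 15 Agilent microarrays labelled with the single dye Cy3, and all mice were adult females. The 3 groups had 5 arrays each and were sedentary SAMR1 (replicates 1 to 5), sedentary SAMP8 (replicates 6 to 10) and exercised SAMP8 (replicates 11 to 15). SAMP8 is a senescence-accelerated inbred mouse strain known for early decline of memory, and SAMR1 is its senescence-resistant control strain. There was no exercised SAMR1 group, so exercise could be examined in SAMP8 only. The sources used here do not give the age beyond "adult" or the kind, dose and duration of the exercise. Arrays are labelled as biological replicates without saying if each came from 1 mouse or from pooled mice. The p-values therefore set differences between groups against the spread between arrays, which may not equal the spread between single mice. In bulk tissue, fewer cells of a type and less RNA per cell cannot be told apart.

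Autophagy encloses cytoplasm in a double membrane and delivers it to the lysosome, where acid hydrolases degrade it. The ULK kinases start the process, the class III PI3-kinase complex with Becn1 marks the membrane, the ATG conjugation enzymes attach small ubiquitin-like proteins to it, and receptors such as Sqstm1 bring in the cargo. The transcription factors TFEB and TFE3 switch on many of these genes together. Neurons do not divide and rely on the pathway to clear old organelles and protein aggregates, and inherited loss of lysosomal enzymes or sterol carriers damages the brain.

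TFEB and TFE3 are known to bind DNA at the E-box CACGTG within longer elements shared by many lysosome genes. RefSeq promoters (GRCm38.p6, 250 bases before to 50 bases after the gene start) could be matched to 29 of the 36 measured genes. CACGTG, which reads the same on both strands, was found in 9 of these 29 (31%), against 8.09% of the 27025 genes in the promoter table. The 9 genes were Atg3, Atg5, Atg7, Ctsa, Ctsd, Ctsl, Gaa, Lamp1 and Mcoln1. The longer form TCACGTGA, which contains CACGTG and also reads the same on both strands, was found in 4 of the 29 (13.8%), namely Atg3, Ctsa, Ctsd and Mcoln1, against 1.12% of all genes. A match describes letters in a window and does not show binding.

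The windows below carry the E-boxes of Gaa, Atg5 and Atg7, which are among the genes whose arrays are given in full further on, and of Lamp1 and Mcoln1, which hold 4 and 2 matches. All lie before the gene start and on the plus strand, and capitals mark CACGTG. They are chr11:119267803-119267848 for Gaa, chr10:44268305-44268338 for Atg5, chr6:114670944-114670989 for Atg7, chr8:13159080-13159160 for Lamp1 and chr8:3500428-3500499 for Mcoln1.
Gaa: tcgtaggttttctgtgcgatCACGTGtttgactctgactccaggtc
Atg5: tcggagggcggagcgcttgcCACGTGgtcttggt
Atg7: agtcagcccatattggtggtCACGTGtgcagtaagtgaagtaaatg
Lamp1: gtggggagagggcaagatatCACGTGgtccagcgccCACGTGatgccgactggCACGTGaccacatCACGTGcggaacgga
Mcoln1: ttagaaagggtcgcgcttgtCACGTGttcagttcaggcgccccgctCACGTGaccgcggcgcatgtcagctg
The first base of the E-box lay 140 bases before the start in Gaa, 14 in Atg5 and 132 in Atg7. In Lamp1 the 4 matches began 61, 45, 28 and 15 bases before the start, and in Mcoln1 the 2 matches began 71 and 45 bases before it.

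All values below are log2 of the deposited spot intensity, so that a difference of 1 is a 2-fold difference, and each gene is represented by its brightest feature. The median intensity of each array lay between 207.8 and 208.8, pairs of arrays correlated at 0.968 to 0.988 over all features, and 0 pairs were identical. The tissue label was checked with neuron markers, of which 11 of 11 measured lay above the array median on all 15 arrays. The 36 genes varied little between arrays of 1 group, with a median SD within groups of 0.14 against 0.19 over all genes. These sets were not matched for brightness. The SD ran from 0.08 for Atg16l1 to 0.51 for Tfeb, leaving aside Gabarapl1, whose brightest feature lay near the highest value of the table. Gusb, the lysosomal beta-glucuronidase, has 11 features, 10 of them with the same transcript accession, and these features had an SD of 0.11 within an array once each feature's own mean level was subtracted.

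The first comparison asked how autophagy and lysosome genes differed between the senescence-prone and the resistant strain at rest. None of the 36 genes passed the test. At the brightest features, the largest measured differences were in Pik3c3 (0.37), and in the lysosomal genes Gaa (0.27), Npc2 (0.24) and Ctsz (0.22), all with the higher mean in SAMP8. All 5 cathepsins and all 4 of the other hydrolases and the sterol carrier had a positive difference, while 3 of 5 lysosomal membrane genes had a negative one.

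The count of genes with adjusted p under 0.05 was 0 of 36 (limma, Benjamini-Hochberg over 16401 genes), while 497 of all genes, or 3.03%, passed. At an unadjusted p under 0.05 there were 4 of 36, against 14.3% of all genes. The difference was positive in 25 and negative in 11 of the 36. Its median was 0.07, against 0.02 over all genes, of which 54.4% were positive. The 95% intervals of the brightest features bound what these arrays could have missed at those features. They lay within 0.5 on either side of 0, a 1.41-fold difference, for 34 of the 36 genes, the exceptions being Pik3c3 and Tfeb, and within 1 for all 36. Gabarapl1 is counted here, although its brightest feature lay near the highest value of the table and its interval bounds nothing. No gene had groups that did not overlap, against 4.57% of all genes.

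**Figure D1:**
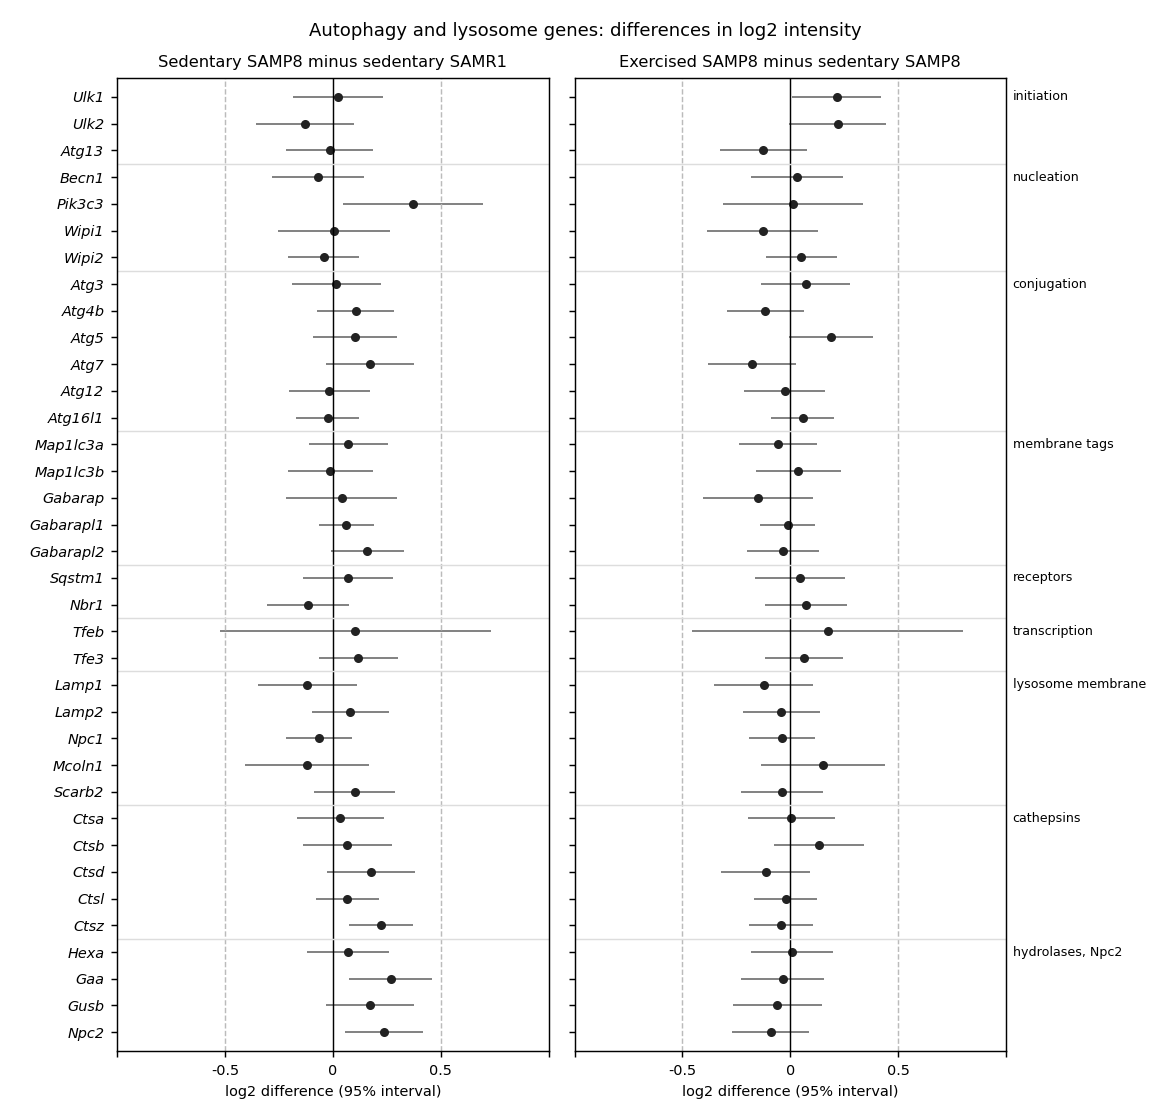
Difference in log2 intensity (x axis) for each of the 36 measured genes (y axis, ordered by role), with points for the estimate and bars for the 95% interval of the limma model with 5 arrays a group. Left, sedentary SAMP8 minus sedentary SAMR1; right, exercised minus sedentary SAMP8; dashed lines stand at 0.5 on either side of 0, and 34 and 35 of the intervals lie between them, counting Gabarapl1, whose interval comes from a feature near the highest value of the table.

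Ctsz, cathepsin Z, is a lysosomal carboxypeptidase that is abundant in microglia. Its log2 intensity was 11.64, 11.77, 11.79, 11.57 and 11.65 on the SAMR1 arrays and 11.92, 11.72, 11.96, 11.95 and 11.99 on the sedentary SAMP8 arrays. Replicate 7 of SAMP8 lay among the SAMR1 values, and the other SAMP8 arrays lay above all of SAMR1. The difference was 0.22 ± 0.07 (SE, n = 5 a group), or 1.17-fold, with a limma adjusted p = 0.126. The second Ctsz feature differed by 0.25. Without replicate 7 the difference was 0.27 and passed, with a limma adjusted p = 0.0429.

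Gaa, acid alpha-glucosidase, degrades glycogen in the lysosome. It measured 13.31, 13.48, 13.41, 13.22 and 13.56 on the SAMR1 arrays and 13.49, 13.84, 13.59, 13.64 and 13.76 on the sedentary SAMP8 arrays. Most SAMP8 arrays lay above SAMR1, but the lowest SAMP8 array fell below the highest SAMR1 array. The difference was 0.27 ± 0.09 (SE, n = 5 a group), or 1.20-fold, with a limma adjusted p = 0.157.

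Npc2 carries cholesterol out of the lysosomal lumen together with Npc1. Its values were 10.93, 10.88, 11.06, 10.76 and 10.85 in SAMR1 and 11.25, 11.19, 11.15, 10.96 and 11.10 in sedentary SAMP8. The groups overlapped by SAMP8 replicate 9, which lay below the highest SAMR1 array. The difference was 0.24 ± 0.08 (SE, n = 5 a group) with a limma adjusted p = 0.189. Npc1, the membrane partner, had a difference of -0.07.

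Pik3c3 is Vps34, the lipid kinase of the nucleation complex. It measured 9.15, 8.61, 8.23, 9.06 and 9.08 on the SAMR1 arrays and 9.05, 9.37, 9.03, 9.14 and 9.40 on the sedentary SAMP8 arrays. Replicates 2 and 3 of SAMR1 stood below all other arrays, and the remaining SAMR1 arrays lay within the SAMP8 range. The difference was 0.37 ± 0.15 (SE, n = 5 a group) with a limma adjusted p = 0.269, and it was 0.22 without SAMR1 replicate 3.

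The remaining lysosomal genes had small differences. Among the cathepsins, the aspartic protease Ctsd differed by 0.18, the cysteine proteases Ctsb and Ctsl by 0.07 each, and Ctsa, which protects other lysosomal enzymes, by 0.03. Of the hydrolases, Gusb differed by 0.17 and Hexa, a subunit of beta-hexosaminidase, by 0.07. The 11 Gusb features gave -0.02 to 0.17 with a median of 0.06, and the brightest of them gave the highest value. In the lysosomal membrane, Lamp1 and the calcium channel Mcoln1 both differed by -0.12, Lamp2 by 0.08 and Scarb2, the receptor that carries glucocerebrosidase to the lysosome, by 0.10.

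The autophagy machinery showed 14 positive and 8 negative differences, with a median of 0.03. In the initiation step the kinases Ulk1 and Ulk2 and their partner Atg13 differed by 0.02, -0.13 and -0.01. Apart from Pik3c3, the nucleation genes Becn1, Wipi1 and Wipi2 lay between -0.07 and 0.00. In conjugation, the E1-like enzyme Atg7 differed by 0.17, the protease Atg4b by 0.11 and Atg5 by 0.10, while the E2-like Atg3, the ubiquitin-like Atg12 and its scaffold partner Atg16l1 lay between -0.02 and 0.02. The second Atg4b feature, nearly as bright, averaged 8.37 in SAMR1 and 8.70 in sedentary SAMP8, a wider gap than at the brightest feature.

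The genes of the ubiquitin-like proteins that sit on the autophagosome membrane differed by 0.07 for Map1lc3a, -0.01 for Map1lc3b, 0.04 for Gabarap and 0.16 for Gabarapl2. The brightest Gabarapl1 feature lay within 0.15 of the highest value of the table on 4 of 5 SAMR1 arrays and on every SAMP8 array. No difference of this gene by itself is therefore read from that feature. It is still counted in the signs, medians and averages given over the genes of the list. The second Gabarapl1 feature, far from that ceiling, differed by -0.01. The cargo receptors Sqstm1 and Nbr1 differed by 0.07 and -0.11, and the transcription factors Tfeb and Tfe3 by 0.10 and 0.12. Sqstm1 has 1 feature, which lay within 0.15 of the highest value on 1 sedentary and 1 exercised SAMP8 array. Its differences carry that limit.

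Averaged over genes after subtracting each gene's mean, the 14 lysosome genes stood at -0.11 to -0.02 on the SAMR1 arrays, 0.00 to 0.07 on the sedentary SAMP8 arrays and -0.05 to 0.06 on the exercised arrays. The 22 autophagy genes stood at -0.11 to 0.03, -0.02 to 0.05 and -0.05 to 0.14 in the same order. These averages were not tested. Markers of the meninges and of the choroid plexus had positive strain differences. Meninges markers were positive for 10 of 10 genes, with a median of 0.45, and 1 passed; their averages were -0.58 to -0.04 in SAMR1 and -0.07 to 0.38 in sedentary SAMP8. Choroid plexus markers were positive for 9 of 9 genes, with a median of 0.86, and 1 passed; their averages were -1.09 to 0.58 and -0.53 to 1.05. None of the choroid plexus markers lay above the array median on all arrays, and 1 of the 9 lay under the lower quartile on all arrays. The median difference of the 12 microglia markers was 0.05, and 0 passed, with 3 at an unadjusted p under 0.05. Endothelial and mural markers were positive for 8 of 10 genes, with a median of 0.15 and 0 that passed (limma, 3 at an unadjusted p under 0.05), and their averages were -0.23 to 0.16 in SAMR1 and 0.04 to 0.21 in sedentary SAMP8. Of 10 astrocyte markers, 1 passed and the median was 0.02. Oligodendrocyte markers were negative for 8 of 9 genes, with a median of -0.06, and 0 passed. Neuron markers were positive for 6 and negative for 5 of 11 genes, with a median of 0.01, and 0 passed. The part of these cells in the lysosomal differences was not tested.

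**Figure D2:**
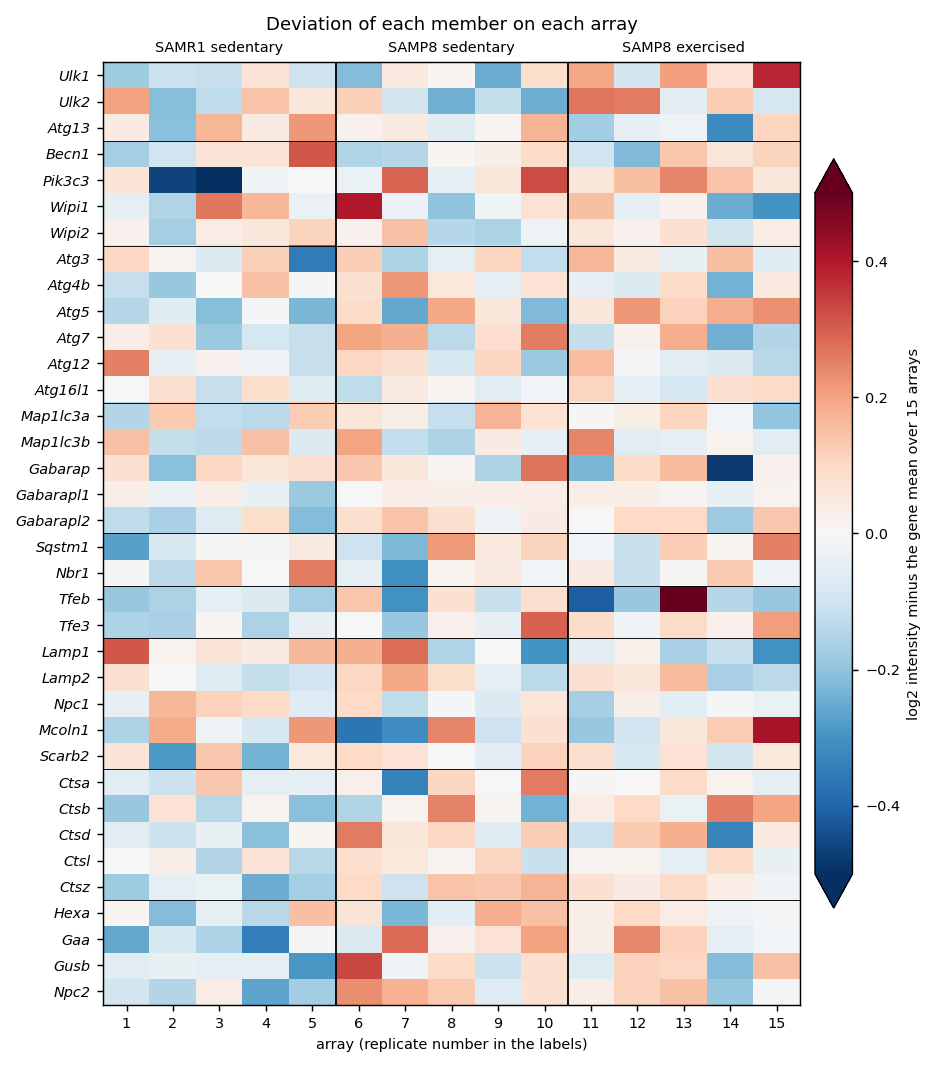
Log2 intensity of each gene (rows, by role) on each array (columns, by replicate number and group) minus the gene's mean over 15 arrays, in colour from blue (lower) to red (higher), with the scale ending at 0.5 on either side of 0. Ctsz, Gaa and Npc2 are mostly blue in SAMR1 and red in SAMP8, and Tfeb is dark red on exercised replicate 13 alone, where it measured 8.19.

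The second comparison asked whether exercise was accompanied by changes of these genes in SAMP8 cortex. None of the 36 genes passed. The measured differences, exercised minus sedentary SAMP8, ran from -0.18 for Atg7 to 0.22 for Ulk2 at the brightest features, and Ulk1 at 0.22 had the smallest p among them. The brightest Gabarapl1 feature cannot be read, and its second feature differed by -0.23. Both ULK kinases had positive differences, and the lysosomal genes had 4 positive and 10 negative ones with a median of -0.04.

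The limma test called 0 of 36 genes at an adjusted p under 0.05, and it called 0 of all 16401 genes, a background of 0%. At an unadjusted p under 0.05 there was 1 of 36, against 7.08% of all genes, and 0 had groups that did not overlap, against 1.1%. Differences were positive in 17 and negative in 19 genes, with a median of -0.02 against 0.02 over all genes. The 95% interval lay within 0.5 on either side of 0 for 35 of the 36, with Tfeb as the exception. For those genes a difference of 1.41-fold or more lay outside the interval, except that the interval of Gabarapl1, from a feature near the ceiling, bounds nothing.

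Ulk1, the kinase that starts autophagy, measured 13.91, 14.17, 14.13, 13.88 and 14.21 on the sedentary and 14.32, 14.03, 14.33, 14.20 and 14.51 on the exercised SAMP8 arrays. Replicates 12 and 14 of the exercised group lay within the sedentary range, and the others lay above it. The difference was 0.22 ± 0.10 (SE, n = 5 a group), or 1.16-fold, with a limma adjusted p = 0.687. The second, dimmer Ulk1 feature differed by -0.11.

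Ulk2, a related kinase, measured 10.30, 10.08, 9.94, 10.06 and 9.93 on the sedentary and 10.45, 10.44, 10.12, 10.30 and 10.09 on the exercised arrays. The groups overlapped. The difference was 0.22 ± 0.11 (SE, n = 5 a group) with a limma adjusted p = 0.711. The other two features, both dimmer, differed by -0.05 and 0.13.

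Atg5, part of a complex of the ATG conjugation system, measured 9.97, 9.62, 10.06, 9.93 and 9.65 on the sedentary and 9.93, 10.09, 9.99, 10.06 and 10.10 on the exercised arrays. Sedentary replicates 7 and 10 lay well below every exercised array, and the other 3 lay at the exercised level. The difference was 0.19 ± 0.09 (SE, n = 5 a group) with a limma adjusted p = 0.711. In SAMR1 the gene measured 9.73, 9.81, 9.66, 9.86 and 9.65.

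Atg7, which activates both ubiquitin-like proteins of the pathway, measured 7.77, 7.75, 7.44, 7.66 and 7.83 on the sedentary and 7.45, 7.59, 7.75, 7.33 and 7.42 on the exercised arrays. The ranges overlapped. The difference was -0.18 ± 0.10 (SE, n = 5 a group) with a limma adjusted p = 0.72, next to a strain difference of 0.17. These comparisons share the sedentary SAMP8 arrays, so a high value there moves them in opposite directions.

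Tfeb, the main transcription factor of lysosome genes, was dim, with 1 array under the lower quartile of all features (6.17). It measured 6.32, 6.35, 6.46, 6.44 and 6.34 in SAMR1, 6.65, 6.21, 6.58, 6.39 and 6.59 in sedentary SAMP8 and 6.09, 6.32, 8.19, 6.36 and 6.32 in exercised SAMP8. Replicate 13 stood far above every other array. The difference with exercise was 0.17 ± 0.29 (SE, n = 5 a group) with it and -0.21 without it, and the limma adjusted p was 0.929 and 0.613. Tfeb was singled out after its values were seen. Tfe3 differed by 0.06.

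**Figure D3:**
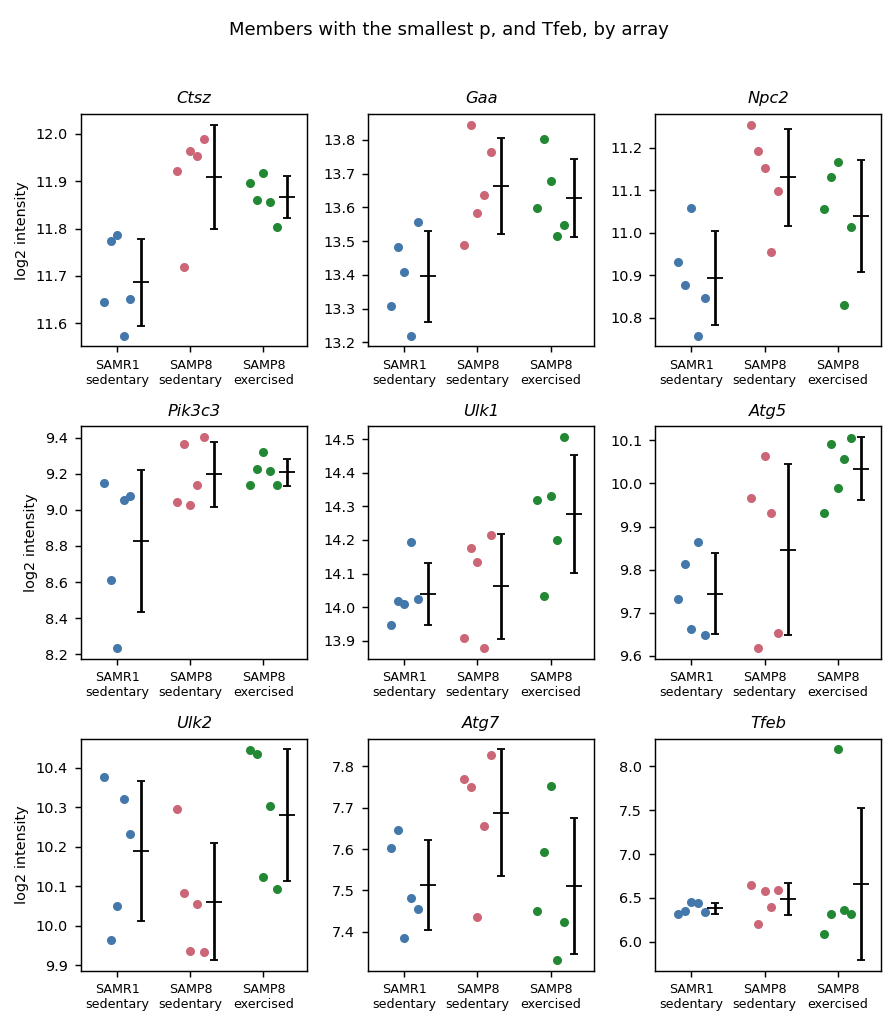
Log2 intensity (y axis) on each array (points) for the genes with the smallest p in a comparison and for Tfeb, by group (x axis), with the mean and SD of 5 arrays beside the points. The groups overlap in every panel between neighbouring groups, and 1 exercised array of Tfeb stands at 8.19 while the others lie at 6.09 to 6.36.

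The values of the other genes follow by role. In initiation and nucleation, Atg13 and Wipi1 differed by -0.13 each, Wipi2 by 0.05, Becn1 by 0.03 and Pik3c3 by 0.01. The second Wipi1 feature, which is dimmer, averaged 8.29 on the sedentary and 8.00 on the exercised arrays, a wider gap than at the brightest. Its average in SAMR1 was 8.29. In conjugation, Atg4b differed by -0.12, and by -0.24 at its second feature. Atg3 differed by 0.07, Atg16l1 by 0.06 and Atg12 by -0.03. Gabarap differed by -0.15, Map1lc3a by -0.06, Gabarapl2 by -0.03 and Map1lc3b by 0.04, and the receptors Sqstm1 and Nbr1 by 0.04 and 0.07. The second Gabarapl1 feature measured 12.72, 12.77, 12.40, 12.55 and 12.58 on the sedentary and 12.45, 12.43, 12.35, 12.37 and 12.26 on the exercised arrays. Sedentary replicate 8 lay within the exercised range, and the others lay above it. That feature differed by -0.23 ± 0.09 (SE, n = 5 a group), with a limma adjusted p = 0.707 over all features.

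Among the lysosomal genes, Mcoln1 differed by 0.15, Ctsb by 0.13, Lamp1 by -0.12, Ctsd by -0.11 and Npc2 by -0.09, and the remaining 9 lay between -0.06 and 0.01. Ctsz and Gaa, which had the smallest p in the strain comparison, differed by -0.04 each. Oligodendrocyte markers had 9 of 9 negative differences with a median of -0.14, and endothelial and mural markers 8 of 10 with a median of -0.16. Of either list 0 passed, with 0 and 2 at an unadjusted p under 0.05 (limma). Averages over the endothelial and mural markers were 0.04 to 0.21 on the sedentary and -0.16 to -0.04 on the exercised arrays, without overlap. Those over the oligodendrocyte markers were -0.28 to 0.45 and -0.42 to 0.05. The part of these cells in the values above was not tested.

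The third comparison set exercised SAMP8 against sedentary SAMR1, which differ in both strain and exercise, and it shares its arrays with both comparisons above. None of the 36 genes passed, against 4.26% of all genes. At an unadjusted p under 0.05 there were 6 of 36, namely Atg5, Gaa, Ctsz, Pik3c3, Ulk1 and Lamp1, against 18.2% of all genes. Groups did not overlap for Atg5 and Ctsz, or 2 of 36, against 5.8% of all genes. The median difference was 0.05 (0.04 over all genes).

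Cell type markers in this comparison gave the following values. Meninges markers were positive for 10 of 10 genes, with a median of 0.52 and 3 that passed, and choroid plexus markers were positive for 7 of 9, with a median of 0.79 and 1 that passed. Oligodendrocyte markers were negative for 9 of 9 genes, with a median of -0.23 and 0 that passed (limma, 2 at an unadjusted p under 0.05). Of 12 microglia markers and of 10 endothelial and mural markers, 1 each passed, with medians of 0.12 and -0.08. Averages over the meninges markers were 0.07 to 0.34 on the exercised arrays, above the SAMR1 range given before, and over the oligodendrocyte markers -0.42 to 0.05 against -0.03 to 0.31 in SAMR1. The part of these cells in the values of this comparison was not tested.

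Atg5 had the smallest p. Every exercised array, at 9.93 or more, lay above every SAMR1 array, at 9.86 or less. The difference was 0.29 ± 0.09 (SE, n = 5 a group), or 1.22-fold, with a limma adjusted p = 0.091. For Ctsz the exercised arrays measured 11.90, 11.86, 11.92, 11.86 and 11.80, all just above the highest SAMR1 array, and the difference was 0.18 with a limma adjusted p = 0.178. For Gaa the exercised arrays measured 13.60, 13.80, 13.68, 13.51 and 13.55, overlapping SAMR1, and the difference was 0.23 with a limma adjusted p = 0.176.

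Pik3c3 measured 9.14, 9.23, 9.32, 9.22 and 9.14 on the exercised arrays, within the sedentary SAMP8 range, and differed from SAMR1 by 0.38 (limma adjusted p = 0.19), or by 0.23 without SAMR1 replicate 3. Ulk1 differed by 0.24 (limma adjusted p = 0.198), and by -0.13 at its second feature. Lamp1, a major glycoprotein of the lysosomal membrane, differed by -0.24 (limma adjusted p = 0.249). Its arrays measured 13.36, 13.07, 13.11, 13.10 and 13.21 in SAMR1 and 13.00, 13.08, 12.89, 12.94 and 12.75 in exercised SAMP8. Exercised replicate 12 lay just above the lowest SAMR1 array, and the other exercised arrays lay below all of SAMR1.

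Taken feature by feature, 0 of the 78 features passed in any comparison, against 2.61% of all features for strain, 0% for exercise and 3.28% for exercised SAMP8 against SAMR1. At an unadjusted limma p under 0.05 there were 8, 4 and 10 of 78, against 14%, 6.64% and 17.7%. Of the 23 genes with several features, 12 had features of opposite sign for strain, 11 for exercise and 16 for exercised SAMP8 against SAMR1. Some large differences came from other features than the brightest. The third Atg3 feature, under the lower quartile of the table on all 15 arrays, differed by -1.06 for strain while the brightest differed by 0.02, and a second Mcoln1 feature differed by -0.64 against -0.12.

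**Figure D4:**
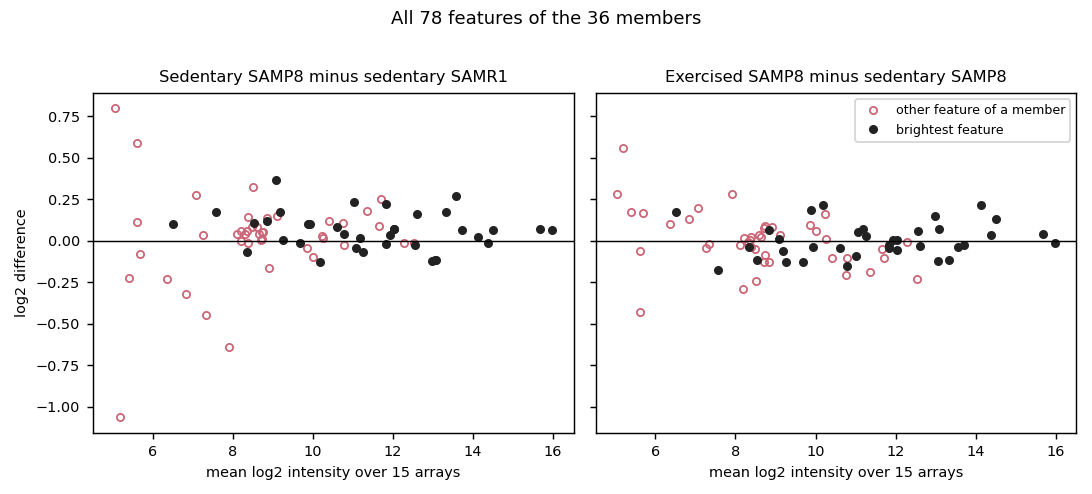
Difference in log2 intensity (y axis) against the mean log2 intensity over 15 arrays (x axis) for the 78 features, filled where the feature is the brightest of its gene and open otherwise. Left, sedentary SAMP8 minus sedentary SAMR1, where the widest differences lie below a mean of about 8 and include -1.06 for an Atg3 feature; right, exercised minus sedentary SAMP8.

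The 9 genes with CACGTG in the promoter window had medians close to those of the 20 matched genes without it. For strain the median difference was 0.07 in both sets, for exercise -0.02 in both, and for exercised SAMP8 against SAMR1 0.04 with the motif and 0.07 without. Within the 9, Gaa at 0.27 held the highest strain difference and Mcoln1 at -0.12 the lowest. For exercise the extremes were Atg5 at 0.19 and Atg7 at -0.18, each with 1 match. Among the 20 without it, differences ran from -0.13 to 0.24 for strain and from -0.15 to 0.22 for exercise.

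Other genes of the pathway were examined by lists. Of 39 other autophagy genes measured, 0 passed in any of the comparisons (limma, with 4, 3 and 3 at an unadjusted p under 0.05 for strain, exercise and exercised SAMP8 against SAMR1). Of all genes, 3.03%, 0% and 4.26% passed, and 14.3%, 7.08% and 18.2% had such an unadjusted p. The smallest p for strain belonged to Atg4a, a protease related to Atg4b, at -0.29 and Epg5, which tethers autophagosomes to lysosomes, at -0.29. For exercise it belonged to Rb1cc1, the scaffold of the ULK complex also known as Fip200, at 0.31, and to the ubiquitin ligase Huwe1 at 0.23. Rb1cc1 measured 11.88, 11.76, 12.11, 11.84 and 11.79 on the sedentary and 12.21, 12.11, 12.03, 12.36 and 12.23 on the exercised arrays. Sedentary replicate 8 lay within the exercised range and the other sedentary arrays lay below it. The limma adjusted p was 0.557, and the mean of all features gave -0.012 for Rb1cc1 and 0.038 for Huwe1. In exercised SAMP8 against SAMR1, Atg4a differed by -0.32 (limma adjusted p = 0.0729) and Huwe1 by 0.28 (limma adjusted p = 0.0792).

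Of 55 other lysosomal genes, 3 were higher and 0 lower in sedentary SAMP8 than in SAMR1, against 1.85% and 1.18% of all genes. In exercised SAMP8 against SAMR1, 4 were higher and 1 lower, against 2.8% and 1.45% of all genes. Their median difference was 0.04 in each, and 0.02 and 0.04 over all genes. The 3 genes that were higher in sedentary SAMP8 encode enzymes. Manba, the beta-mannosidase that trims glycoproteins, measured 8.35, 8.18, 8.22, 8.24 and 8.11 in SAMR1 and 8.78, 8.73, 8.79, 8.84 and 8.69 in sedentary SAMP8. The groups lay wide apart. Manba was higher by 0.54 ± 0.06 (SE, n = 5 a group), or 1.46-fold, with a limma adjusted p = 8.52e-05, and its dimmer second feature differed by 0.20.

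Dpp7, a lysosomal dipeptidyl peptidase, measured 10.19, 10.57, 10.44, 10.37 and 10.72 in SAMR1 and 10.95, 11.03, 11.19, 11.18 and 11.15 in sedentary SAMP8. All SAMP8 arrays lay above all SAMR1 arrays. The difference was 0.64 ± 0.11 (SE, n = 5 a group), or 1.56-fold, with a limma adjusted p = 0.00208, and the second feature differed by 0.88. Exercised SAMP8 arrays measured 10.99, 11.00, 11.09, 11.35 and 11.32, a difference of 0.05 from the sedentary ones.

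Neu1, the sialidase that works in a complex with Ctsa, measured 12.03, 12.21, 12.45, 12.23 and 12.27 in SAMR1 and 12.47, 12.67, 12.90, 12.53 and 12.87 in sedentary SAMP8. The groups came close to each other without overlapping. The difference was 0.45 ± 0.11 (SE, n = 5 a group) with a limma adjusted p = 0.046. Its second feature differed by -0.20, and with the mean of both features the difference was 0.13 and did not pass. It also missed the threshold on leaving out any 1 of SAMR1 replicates 1, 2, 4 and 5, sedentary SAMP8 replicates 7 to 10 or exercised replicates 12 to 14. Ctsa, its partner, differed by 0.03.

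Against SAMR1, exercised SAMP8 had higher Manba (0.61), Dpp7 (0.69), Neu1 (0.54) and Sumf1 (0.33), the enzyme that activates sulfatases, and lower Lipa (-0.64), the acid lipase of the lysosome. The second Neu1 feature differed by -0.15, and with the mean of both features Neu1 differed by 0.20 and did not pass. The limma adjusted p of Sumf1 was 0.0373 and of Lipa 0.0438. In sedentary SAMP8 against SAMR1, Lipa differed by -0.13 and did not pass (limma adjusted p = 0.804). Between exercised and sedentary SAMP8 it differed by -0.52 and did not pass either (limma adjusted p = 0.59). Lipa measured 8.64, 7.93, 8.51, 8.21 and 8.38 in SAMR1 and 7.62, 8.12, 7.90, 7.59 and 7.23 in exercised SAMP8. The groups overlapped by exercised replicate 12. Lipa no longer passed on leaving out any 1 of SAMR1 replicates 1, 3, 4 and 5, sedentary SAMP8 replicates 7 to 10 or exercised replicates 11 and 13 to 15, where the limma adjusted p was at most 0.108. Sumf1 no longer passed on leaving out any 1 of SAMR1 replicates 1, 3, 4 and 5, sedentary SAMP8 replicate 9 or exercised replicates 11 and 13 to 15, where it was at most 0.097.

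**Figure D5:**
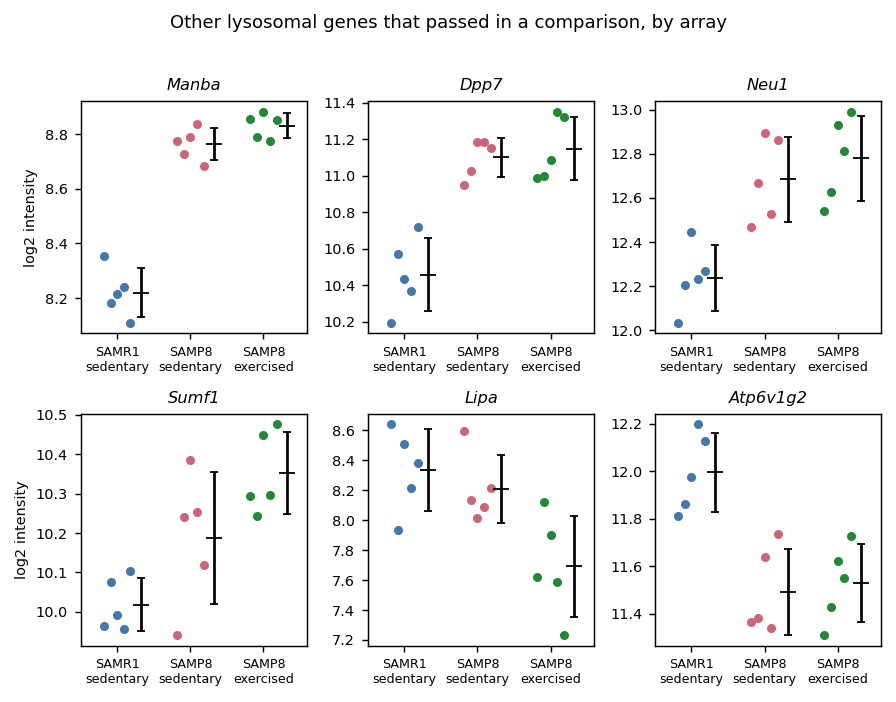
Log2 intensity (y axis) on each array (points) for the 5 other lysosomal genes and the proton pump subunit that passed in a comparison, by group (x axis), with the mean and SD of 5 arrays. All SAMP8 arrays of Manba and Dpp7 lie above all SAMR1 arrays, and all SAMP8 arrays of Atp6v1g2 lie below them.

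With exercise, 0 of the 55 passed (limma, 4 at an unadjusted p under 0.05), against 0% and 7.08% of all genes. The 2 with the smallest p were Psap and Sort1. Psap encodes prosaposin, the precursor of the saposins that help degrade sphingolipids, and Sort1 is a sorting receptor that carries it to lysosomes. Psap measured 13.47, 13.40, 13.68, 13.85 and 13.65 in SAMR1, 14.14, 14.26, 13.88, 14.12 and 13.89 in sedentary SAMP8 and 13.21, 13.91, 13.63, 12.99 and 12.66 in exercised SAMP8. Sedentary SAMP8 lay above SAMR1 on every array, and the exercised arrays spread widely, from below SAMR1 into the sedentary range. The strain difference was 0.45 with a limma adjusted p = 0.283, and 4.57% of all genes had groups that did not overlap for strain. The strain and exercise comparisons share the sedentary SAMP8 arrays, so high values there move them in opposite directions. The exercise difference was -0.78 ± 0.19 (SE, n = 5 a group) with a limma adjusted p = 0.521, and -0.92 at the second feature. Sort1 differed by 0.36 (limma adjusted p = 0.521), with groups that did not overlap, against 1.1% of all genes. Its other 3 features differed by -0.17 to 0.03.

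The vacuolar ATPase, the pump that acidifies the lysosome, had 17 subunit genes measured. Of these, 1 passed for strain and 1 for exercised SAMP8 against SAMR1, against 3.03% and 4.26% of all genes. Atp6v1g2, the G subunit found in neurons, measured 11.81, 11.86, 11.98, 12.20 and 12.13 in SAMR1, 11.37, 11.38, 11.64, 11.34 and 11.74 in sedentary SAMP8 and 11.31, 11.43, 11.62, 11.55 and 11.73 in exercised SAMP8. Both SAMP8 groups lay below all SAMR1 arrays. It was lower by 0.50 on the log2 scale in sedentary SAMP8, a difference of -0.50 ± 0.11 (SE, n = 5 a group) with a limma adjusted p = 0.0175, and differed by -0.47 in exercised SAMP8 (limma adjusted p = 0.0236). Its second feature differed by -0.34 and -0.33. For strain it did not pass without SAMR1 replicate 4 or 5 or sedentary SAMP8 replicate 6 or 9 (limma adjusted p at most 0.0538), and for exercised SAMP8 without SAMR1 replicate 4 or 5 or exercised replicate 11 or 12 (at most 0.0674). With exercise, 0 of 17 passed (limma, 1 at an unadjusted p under 0.05), against 0% and 7.08% of all genes. Atp6v1h differed by -0.33 and Atp6v1a by -0.21, and their second features differed by -0.36 and -0.42. The third Atp6v1h feature, far dimmer, differed by -0.10. In exercised SAMP8 against SAMR1, Atp6v1a differed by -0.26 and did not pass. Its second feature differed by -0.52 there and passed, with a limma adjusted p = 0.0468 over all features.

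Of 29 genes that regulate TFEB and the ULK kinases through mTORC1 and AMPK, 0 passed in any comparison (limma, with 2, 2 and 8 at an unadjusted p under 0.05), against the shares of all genes given above (14.3%, 7.08% and 18.2% unadjusted). For strain, Mlst8, a subunit of mTORC1, differed by 0.18 and Lamtor5, part of the Ragulator scaffold, by 0.27. For exercise, the GTPase Rragd differed by -0.58 and the AMPK catalytic subunit Prkaa2 by -0.31. Rragd measured 11.02, 11.17, 11.07, 11.31 and 10.74 on the sedentary and 10.46, 10.83, 10.69, 10.10 and 10.32 on the exercised arrays. Sedentary replicate 10 lay within the exercised range and the other sedentary arrays lay above it. The limma adjusted p was 0.521, and the other features of Rragd differed by 0.12 and -0.35. Against SAMR1, exercised SAMP8 differed by 0.32 for Fnip1, a partner of folliculin, and by -0.33 for Prkaa2. The other Fnip1 features differed by 0.17, -0.20 and -0.17, and the mean of all of them gave 0.032.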

How the data were processed

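The deposited table held Cy3 spot intensity on a linear scale. The submitters' processing notes name limma; the sources used here give no version, background correction, normalization, slide or scan date, so batches could not be tested. Of 45220 features, 10741 were empty on all arrays. Gene names came from the platform annotation; 27968 features with values had 1 symbol. The columns had nearly equal medians and were used as normalized. Each gene was represented by the feature with the highest mean log2 intensity. limma 3.58.1 (R 4.3.3, lmFit, eBayes) was fitted over 15 arrays in 3 groups, two-sided, with Benjamini-Hochberg adjustment over 16401 genes and a threshold of 0.05; a second fit ran over 34479 features. The fit over genes was run on simulated data with independent noise as a check of the code, and the fit over features was not. How often differences as small as those above would be found is not reported here. Arrays have no depth, and their number limits the precision. Promoters were RefSeq's (GRCm38.p6). Tables were made with pandas 2.3.3 and numpy 2.4.6 in Python 3.11.15, and figures with matplotlib 3.10.9. Genes given array by array were the 4 with the smallest p in each comparison, and of the other lists those that passed, or the 2 with the smallest p; Tfeb, Lamp1 and the second Gabarapl1 feature were added after their values were seen. The genes and lists were chosen with earlier results of these data known. Each result was recomputed under 8 other settings and without each of the 15 arrays.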

Additional observations from a re-analysis of the deposited data

Results flagged for a closer look

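Some single arrays stood apart from the other 4 of their group, with a gap to the nearest array that exceeded Dixon's 95% critical value for 5 arrays. This happened in 11 of 165 groups of arrays examined, 9 of 108 among the autophagy and lysosome genes, and chance flags about 1 in 20. Tfeb on exercised SAMP8 replicate 13 measured 8.19, with the nearest array at 6.36. Ctsz on sedentary SAMP8 replicate 7 measured 11.72, with the nearest at 11.92, and Nbr1 on the same array measured 12.77, with the nearest at 13.03. In SAMR1, Ctsa on replicate 3 measured 12.07, Gabarap on replicate 2 measured 10.56 and Gusb on replicate 5 measured 8.89. Map1lc3b on exercised replicate 11 measured 14.61. Gabarapl1 measured 15.96 on sedentary SAMP8 replicate 6 and 15.93 on exercised replicate 14, in groups whose other arrays lay near the highest value of the table. Among the proton pump genes, Atp6v1a measured 11.25 and Atp6v1h 11.87 on exercised replicate 12.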

How the results depend on the processing

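The number of autophagy and lysosome genes that passed was 0 for exercise and for exercised SAMP8 against SAMR1 under all 23 alternatives, and 0 to 1 for strain, where Ctsz passed without sedentary SAMP8 replicate 7. Over all genes, leaving out 1 array gave 386 to 516 calls for strain, 0 to 3 for exercise (3 without exercised replicate 12) and 483 to 848 for exercised SAMP8 against SAMR1. Of the 36 genes, 0 to 6 changed sign under an alternative. With the mean of all features, Rb1cc1 for exercise was -0.012 and Huwe1 for exercised SAMP8 against SAMR1 was -0.049. Leaving out 1 array moved Tfeb between -0.21 and 0.31 for exercise and between -0.11 and 0.42 against SAMR1, both lowest without exercised replicate 13. Ulk1 for exercise was 0.06 with the mean of both features. Neu1 for strain lost its call under 15 of the 23, Atp6v1g2 under 4, and for exercised SAMP8 against SAMR1 Lipa lost it under 13 and Sumf1 under 10; Manba and Dpp7 kept theirs under every one. Atg4a gained a call under 1 of the 23 for strain and under 3 for exercised SAMP8 against SAMR1, and Huwe1 under 1 for the latter. Tfeb was not among the 35 genes tested without the dimmest 30% of genes. The cause of these shifts was not tested. No paired analysis was possible because the replicate numbers run from 1 to 15 without repeating between groups. Standard errors of the differences had a median of 0.09 for the 36 genes and 0.12 for all genes, which limits what 5 arrays a group could show.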
